A study of Mus musculus with 9 samples.

Results

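The 10 genes of the Wnt and ROR1 pathway described here were measured in splenic B cells of 9 mice, out of 22174 genes in the table that the study made on a mouse reference with human sequences added, and were chosen by name. They are the ligands Wnt10a and Wnt16, the receptors and co-receptors Fzd1, Fzd6, Lrp5, Lrp6 and Ror1, and the intracellular and nuclear genes Axin2, Ctnnb1 and Lef1. RNA-sequencing gave 1 library per mouse, with 3 mice per group and an age-matched design in which the transgenic mice had a significant disease burden. Eµ-MTCP1 mice (Z2551, Z2606 and Z2641) carry human MTCP1 behind a VH promoter and the IgH-Eµ enhancer, which act in B cells, and all belong to 1 founder line (Z36) with its insertion in an intron of Fam168a. Eµ-TCL1 mice (B4376, B4437 and C1594) carry human TCL1A behind the same elements. Wildtype mice (Z2754, Z2755 and Z2785) were littermates that lacked the human MTCP1 transgene. All 3 groups share the strain label C57/BL6NTac, and both sexes were used in the study in equal ratio. The study isolated B cells from spleen magnetically, so the libraries are bulk RNA, in which fewer cells of a type and less RNA per cell cannot be told apart.

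Wnt proteins are secreted, bind Frizzled receptors together with the co-receptors LRP5 and LRP6, and thereby block the complex built on Axin that marks beta-catenin for destruction. Beta-catenin, encoded by Ctnnb1, then enters the nucleus and binds factors of the TCF/LEF family, and Axin2 is a classical target that feeds back on the pathway. ROR1 is a receptor tyrosine kinase-like protein that binds Wnt ligands outside this route and is a well-known surface marker of human chronic lymphocytic leukemia. High nuclear LEF1 is also known in that disease. The comparisons ask which of these genes differed between leukemic and wildtype B cells, and between the leukemias of both transgenic models.

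Between 6447542 and 8033303 reads per library were assigned to genes on the reference used for testing, and at these depths 3 reads, taken as the floor, correspond to 0.373 to 0.465 reads per 1000000 reads (CPM). The study's log2 value of human MTCP1 was 11.1 to 12.3 in the Eµ-MTCP1 libraries and 5.85 to 6.19 in the others, and that of human TCL1A was 14.9 to 15.6 in the Eµ-TCL1 libraries and 6.04 to 6.96 in the others. All 6 B-cell markers examined were over the floor in every library, with a summed level of 7082 to 10043 CPM. Of 12 T-cell markers, 4 to 12 per library were over the floor, with a summed level of 70.7 to 171 CPM in Eµ-MTCP1, 79.1 to 184 in Eµ-TCL1 and 81.3 to 111 in wildtype mice. Lck and Cd5 made up most of this sum by reads in every library. Lck had 558 to 632 reads in wildtype mice, and Cd5, which also marks some B cells, had 6 to 32 reads in wildtype and 168 to 679 in transgenic mice. The 7 myeloid markers summed to 491 to 1026, 140 to 1380 and 860 to 1984 CPM. The 5 plasma-cell markers summed to 302 (Z2641) to 2691 (Z2606) CPM in Eµ-MTCP1, 103 (B4437) to 1951 (B4376) in Eµ-TCL1 and 865 to 1331 in wildtype mice. Of 11165 genes tested, 613 were higher and 446 lower in Eµ-MTCP1 than in wildtype mice, and 566 and 461 in Eµ-TCL1 mice; when total reads alone set the scale, the median over all genes became -0.26 and -0.15 (log2 fold change) and these splits became 391 and 730, and 446 and 591. The library of wildtype mouse Z2755 was sequenced on another lane than the other 8.

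Lef1 is printed first because its reads could be divided between start sites. The gene lies on the plus strand of chromosome 3 (GRCm38, 131110471 to 131224356). RefSeq places start sites for it that include an upstream one just before this interval, an internal one and a further downstream one. The upstream transcript begins its coding sequence with an exon of 207 coding bases (131111472 to 131111678), and the internal transcript replaces that exon with 9 coding bases (131112812 to 131112820). The amino-terminal part of LEF1 is where beta-catenin binds, and forms of LEF1 that start internally and lack it are known. The windows from 250 bases before to 50 bases after 3 of these starts are given 5′ to 3′ on the plus strand from RefSeq (GRCm38.p6), with capitals marking a spelling of the TCF/LEF motif, searched on both strands as CTTTGAA, as CTTTGAT, as CTTTGTA and as CTTTGTT.
Lef1 upstream start, chr3:131110073-131110372: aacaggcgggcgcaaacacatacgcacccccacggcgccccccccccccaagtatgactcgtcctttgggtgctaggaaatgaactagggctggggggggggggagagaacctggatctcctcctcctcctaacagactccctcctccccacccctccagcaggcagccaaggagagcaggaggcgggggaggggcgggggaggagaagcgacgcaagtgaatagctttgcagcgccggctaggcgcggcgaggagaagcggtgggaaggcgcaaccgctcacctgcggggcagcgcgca
Lef1 internal start, chr3:131112541-131112840: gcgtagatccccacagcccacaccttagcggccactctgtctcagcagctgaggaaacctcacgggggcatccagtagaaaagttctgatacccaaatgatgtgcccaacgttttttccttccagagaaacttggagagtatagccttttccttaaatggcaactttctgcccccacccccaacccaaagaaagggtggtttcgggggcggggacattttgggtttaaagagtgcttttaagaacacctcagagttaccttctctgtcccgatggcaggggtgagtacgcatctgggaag
Lef1 downstream start, chr3:131156044-131156343: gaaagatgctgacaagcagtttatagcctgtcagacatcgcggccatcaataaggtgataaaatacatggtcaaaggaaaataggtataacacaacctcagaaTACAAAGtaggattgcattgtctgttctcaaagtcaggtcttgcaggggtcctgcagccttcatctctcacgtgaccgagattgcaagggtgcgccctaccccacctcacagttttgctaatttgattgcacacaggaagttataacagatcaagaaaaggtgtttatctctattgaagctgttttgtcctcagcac
One match was found in the downstream window and 0 in the upstream and internal windows, where 16.9% of all 32851 windows of 300 bases held at least 1. The windows of Axin2, Ror1, Wnt16, Fzd1 and Ctnnb1 held 0 matches, which says only that these letters are not in them. Windows for 6 of the 10 genes could be matched by symbol.

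Reads of the 10 genes fell into 3 levels. Ctnnb1, Lrp6, Lef1 and Wnt10a were over the floor in all 9 libraries, while Fzd6, Lrp5 and Wnt16 were at it in 2, 3 and 5 libraries. Fzd1 and Axin2 were at the floor in 8 libraries and Ror1 in all 9. The coverage filter of the study (CLEAR) passed Ctnnb1, Lrp6, Lef1 and Wnt10a in 9 libraries, Fzd6 in 7, Wnt16 in 5, Lrp5 in 4, and Ror1, Fzd1 and Axin2 in 0. A filter on low reads left 6 of the 10 for testing, namely Wnt10a, Fzd6, Lrp5, Lrp6, Ctnnb1 and Lef1.

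**Figure D1:**
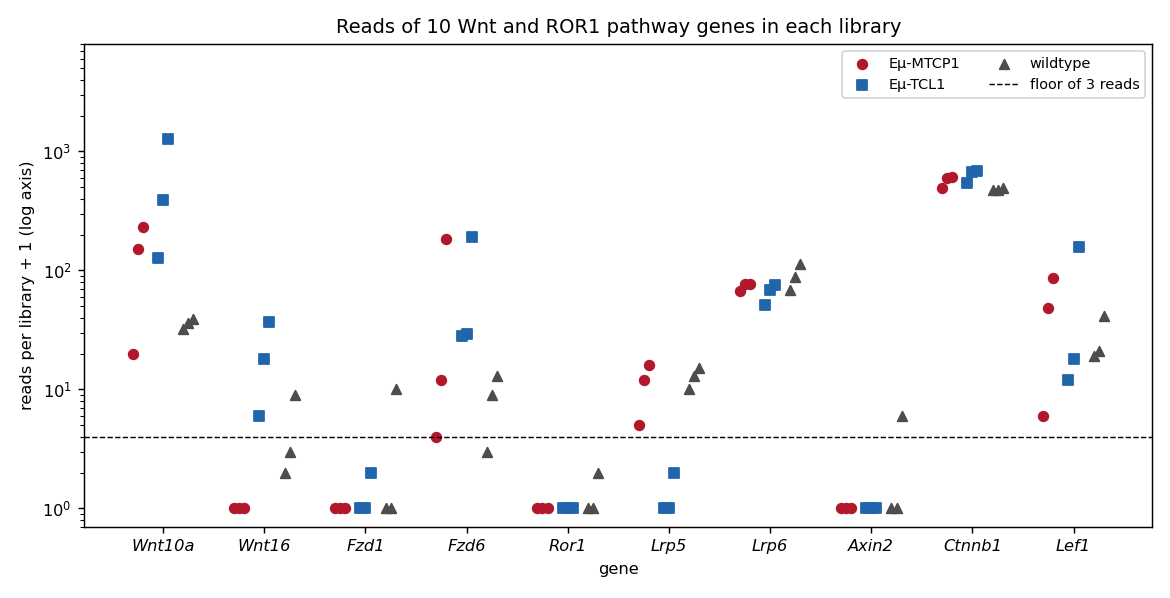
Reads per library plus 1 on a log axis for the 10 genes, with 1 point per mouse and the floor of 3 reads as a dashed line. The Eµ-TCL1 points of Wnt10a sit at 126 to 1272 reads, above the wildtype points at 31 to 38, whereas Ror1 has at most 1 read in any library.

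In TPM on the reference of coding sequences, a share of all transcripts that allows for length, Ctnnb1 was the highest of the 10 genes in wildtype mice at 16.8 ± 1.70 (SD, n = 3), followed by Wnt10a at 3.76 ± 0.263, Lef1 at 1.77 ± 0.753 and Lrp6 at 1.01 ± 0.243. The ranges of Lef1 and Lrp6 lay next to each other without overlap, from 1.29 to 2.64 TPM for Lef1 and from 0.806 to 1.28 TPM for Lrp6. On the reference of whole transcripts this order turned, with mean wildtype levels of 3.89 ± 2.24 TPM for Lrp6, 2.81 ± 0.145 for Wnt10a and 1.96 ± 0.880 for Lef1, below 31.0 ± 5.99 for Ctnnb1. In wildtype mice the other genes had mean levels of 0.358 TPM (Wnt16) or less. In Eµ-MTCP1 mice Ctnnb1 was at 21.3 ± 8.48 TPM and Wnt10a at 13.7 ± 10.4, and the ranges of these neighbours overlapped (15.3 to 31.0 and 2.23 to 22.5). In Eµ-TCL1 mice the mean of Wnt10a, 61.1 ± 60.6 TPM, exceeded that of Ctnnb1, 21.4 ± 3.40, but with overlapping ranges (12.4 to 129 and 17.5 to 23.4). Lef1, Fzd6 and Wnt16 followed in Eµ-TCL1 mice at 3.68 ± 4.82, 3.30 ± 2.15 and 2.77 ± 2.22 TPM, and did not differ from each other beyond their spread.

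Among ligands, Wnt10a rose in Eµ-TCL1 mice. Wnt10a (chromosome 1, 74791516 to 74804179, plus strand) encodes a ligand that usually acts through beta-catenin. It had 149, 232 and 19 reads in Eµ-MTCP1 mice Z2551, Z2606 and Z2641. In Eµ-TCL1 mice B4376, B4437 and C1594 it had 391, 126 and 1272 reads. In wildtype mice it had 31, 35 and 38 reads. Every Eµ-TCL1 library was above every wildtype library, whereas the Eµ-MTCP1 library of Z2641 lay below all 3 wildtype libraries and the other Eµ-MTCP1 libraries lay above them. All of these reads fell on 1 transcript. At CPM scaled by TMM, the level was 82.5 ± 84.9 in Eµ-TCL1 against 4.46 ± 1.11 in wildtype mice (log2 fold change 4.21 ± 0.96 SE, adjusted p = 0.0207, edgeR quasi-likelihood test). In Eµ-MTCP1 mice the level was 20.2 ± 15.3 CPM, with a log2 fold change from wildtype of 2.19 ± 0.91 that did not pass (adjusted p = 0.167, edgeR). The direct difference of Eµ-TCL1 from Eµ-MTCP1 mice was 2.03 ± 0.85 on the log2 scale and did not pass either (adjusted p = 0.723, edgeR). The call in Eµ-TCL1 mice was lost without C1594, the highest library (log2 fold change 2.96, adjusted p = 0.0640, edgeR), and without any 1 of the 3 wildtype libraries (adjusted p = 0.0628 to 0.101, edgeR). One of these is Z2755, so within the shared lane the log2 fold change was 4.07 (adjusted p = 0.0896, edgeR). With whole gene counts from genome alignment and no filter on low reads, an alternative added after the data were seen, Wnt10a also passed in Eµ-MTCP1 mice (log2 fold change 2.01, adjusted p = 0.0338, edgeR).

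Wnt16 (chromosome 6, 22288227 to 22298522, plus strand), a ligand linked to leukemia, was named by the study for its difference between the transgenic models in these same libraries, so that contrast is a description. It had 17, 36 and 5 reads in Eµ-TCL1 mice B4376, B4437 and C1594. It had 0 reads in all 3 Eµ-MTCP1 mice. It had 1, 8 and 2 reads in wildtype mice Z2754, Z2755 and Z2785. Wildtype libraries thus lay between the transgenic groups and overlapped the Eµ-TCL1 range through Z2755. The mean of Eµ-TCL1 mice was at least 5.28-fold higher than the floor of Eµ-MTCP1 mice, and without B4437 at least 3.24-fold. Those 0 reads held only for the reference of coding sequences: on the reference of whole transcripts the Eµ-MTCP1 libraries had 1, 6 and 1 reads against 24, 63 and 11 in Eµ-TCL1 and 7, 13 and 9 in wildtype mice. Wnt16 did not pass the filter for testing, and with no filter its difference from wildtype in Eµ-TCL1 mice had an adjusted p of 0.255 (edgeR).

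Among receptors, the reads of Fzd6 came mostly from a single library in either leukemia. Fzd6 (chromosome 15, 39006034 to 39038188, plus strand) encodes a Frizzled receptor best known for planar polarity. It had 11, 181 and 3 reads in Eµ-MTCP1 mice Z2551, Z2606 and Z2641. It had 28, 27 and 191 reads in Eµ-TCL1 mice B4376, B4437 and C1594. It had 8, 2 and 12 reads in wildtype mice. By reads all Eµ-TCL1 libraries were above all wildtype libraries, while the Eµ-MTCP1 libraries other than Z2606 lay inside the wildtype range. In TPM on coding sequences Z2551 was at 1.98, above the 0.0656 to 0.419 of wildtype mice, but in TPM on whole transcripts it was at 0.394, inside their 0.0435 to 0.469. The log2 fold change from wildtype was 3.25 ± 1.40 in Eµ-MTCP1 (adjusted p = 0.181, edgeR) and 3.51 ± 1.40 in Eµ-TCL1 mice (adjusted p = 0.152, edgeR). Without Z2606 that of Eµ-MTCP1 mice was 0.19, and without C1594 that of Eµ-TCL1 mice was 1.86. With no filter on low reads, Fzd6 passed in Eµ-TCL1 mice on the reference of whole transcripts and on genome counts (adjusted p = 0.0351 and 0.0352, edgeR), both of them alternatives added after the data were seen. Genome alignment gave 155 and 187 reads in Z2606 and C1594, and 0 in Z2641 and Z2755.

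Lrp5 lay at the floor in Eµ-TCL1 mice, and its reads were few in every group. Lrp5 (chromosome 19, 3584828 to 3686564, minus strand) and Lrp6 encode paired co-receptors of Frizzled, and the study named Lrp5 for its difference between the transgenic models in these libraries. Lrp5 had 15, 11 and 4 reads in Eµ-MTCP1 mice Z2551, Z2606 and Z2641. It had 0, 1 and 0 reads in Eµ-TCL1 mice, all at the floor. It had 14, 9 and 12 reads in wildtype mice. No Eµ-TCL1 library reached the lowest library of either other group. The level in Eµ-TCL1 mice was at least 3.76-fold lower than in wildtype mice (adjusted p = 0.0268, edgeR) and at least 3.89-fold lower than in Eµ-MTCP1 mice (adjusted p = 0.357, edgeR; a description for the reason given). Lrp5 entered the test through the groups where it was higher, and with only Eµ-TCL1 and wildtype libraries fitted it did not pass the read filter. With no filter its adjusted p was 0.0410 (log2 fold change -4.65, edgeR). The level in Eµ-MTCP1 mice, 1.56 ± 0.899 CPM, was close to that in wildtype mice, 1.51 ± 0.461 CPM, with a log2 fold change of 0.06 ± 0.79 that became -0.15 when libraries were scaled by size alone. On the reference of whole transcripts Eµ-TCL1 libraries had 2, 1 and 3 reads against 19, 10 and 14 in wildtype mice, and the difference no longer passed (log2 fold change -2.63, adjusted p = 0.0627, edgeR). The call was also lost without B4376 or C1594, or without any 1 wildtype library (adjusted p = 0.0603 to 0.0972, edgeR).

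Lrp6 (chromosome 6, 134446476 to 134566965, minus strand) had 76, 66 and 76 reads in Eµ-MTCP1, 68, 50 and 75 in Eµ-TCL1 and 87, 113 and 67 in wildtype mice. The 3 groups overlapped. Its log2 fold changes from wildtype were 0.05 ± 0.31 in Eµ-MTCP1 (adjusted p = 0.936, edgeR), which turned to -0.19 with library-size scaling alone, and -0.35 ± 0.31 in Eµ-TCL1 mice (adjusted p = 0.524, edgeR). Fzd1, another Frizzled receptor, had 9 reads in wildtype mouse Z2785, 1 read in Eµ-TCL1 mouse B4437 and 0 in the other 7 libraries. Ror1 (chromosome 4, 100095791 to 100444765, plus strand) had 1 read in wildtype mouse Z2785 and 0 in the other 8 libraries, including all 6 of the transgenic mice. On the reference of whole transcripts Ror1 had 3 reads in all 9 libraries together, and by genome alignment 1. A count of 0 allows up to 3 reads per library, so levels up to 0.373 to 0.465 CPM, depending on the library, cannot be told from 0 at this depth.

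Inside the cell, Ctnnb1 (chromosome 9, 120929216 to 120960507, plus strand) had 489, 593 and 606 reads in the Eµ-MTCP1 group. The Eµ-TCL1 libraries had 690, 670 and 537 reads, and the wildtype libraries 473, 490 and 472. Scaled by TMM, the Eµ-MTCP1 libraries lay at 80.1 CPM and above and the Eµ-TCL1 libraries at 75.1 to 95.3 CPM, above the 53.1 to 71.2 CPM of wildtype mice with no overlap. The log2 fold changes, 0.53 ± 0.19 and 0.47 ± 0.19, did not pass (adjusted p = 0.109 and 0.151, edgeR). They kept their sign with library-size scaling alone, at 0.30 and 0.34. Per total reads, however, C1594 (537 of 7456838) lay below wildtype mouse Z2785 (472 of 6489940), so the Eµ-TCL1 and wildtype ranges then overlapped. In TPM the groups overlapped on coding sequences (15.3 to 31.0 in Eµ-MTCP1, 17.5 to 23.4 in Eµ-TCL1 and 15.4 to 18.7 in wildtype mice). On whole transcripts the mean TPM was 30.7, 30.1 and 31.0. Axin2, the feedback target (chromosome 11, 108920349 to 108950783, plus strand), had 5 reads in wildtype mouse Z2785 and 0 in the other 8 libraries.

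Lef1 varied widely among the libraries of either transgenic group. It had 86, 5 and 47 reads in Eµ-MTCP1 mice Z2551, Z2606 and Z2641. It had 11, 157 and 17 reads in Eµ-TCL1 mice B4376, B4437 and C1594. It had 40, 20 and 18 reads in wildtype mice Z2754, Z2755 and Z2785. Each transgenic group held libraries below and above the whole wildtype range. The log2 fold changes from wildtype were 1.19 ± 1.05 in Eµ-MTCP1 (adjusted p = 0.516, edgeR) and 1.24 ± 1.05 in Eµ-TCL1 mice (adjusted p = 0.508, edgeR), and without B4437 the latter was -0.78. T cells also express Lef1. Of the T-cell markers other than Lck and Cd5, Cd3d, Cd3e, Cd8b1 and Trac had 19, 4, 12 and 16 reads in B4437. They had 63, 51, 75 and 49 reads in B4376, where Lef1 had 11 reads. In wildtype mice these 4 markers had 5 to 8, 3 to 11, 2 to 5 and 0 to 12 reads. Cd3g had 3, 12 and 136 reads in Z2551, Z2606 and Z2641. It had 146, 67 and 53 reads in B4376, B4437 and C1594, and 9 to 14 in wildtype mice. Cd4, Cd8a, Thy1, Cd28 and Il7r had at most 18 reads in any library. The part of T cells in the Lef1 values was not tested.

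The share of Lef1 reads on the internal-start transcript, whose window is printed above, varied between libraries of every group. Among libraries with more than 30 Lef1 reads on coding sequences, it took 89 of 157 reads in B4437 (56.7%, Wilson 95% interval 48.9 to 64.2%) and 10 of 47 in Z2641 (21.3%, 11.99 to 34.9%). Intervals cover counting error only. It was given 0 of 86 reads in Z2551 and 0 of 40 in wildtype mouse Z2754. The highest shares came from libraries with fewer reads, at 14 of 18 in wildtype mouse Z2785 (77.8%, 54.8 to 91.0%) and 13 of 17 in C1594 (76.5%, 52.7 to 90.4%). In the others it was 0, of 20 reads in wildtype mouse Z2755, 11 in B4376 and 5 in Z2606. Wildtype and transgenic libraries alike thus held both shares of 0 and shares over 20%. On whole transcripts the share was 50% in Z2551 (83 of 166 reads), 18.4% in Z2754 (18 of 98) and 41.3% in Z2785 (19 of 46), each outside its interval on coding sequences. It was 25.8% in B4376 (8 of 31) and 89.3% in C1594 (25 of 28), both inside that interval, and 56.6% in B4437 (163 of 288).

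**Figure D2:**
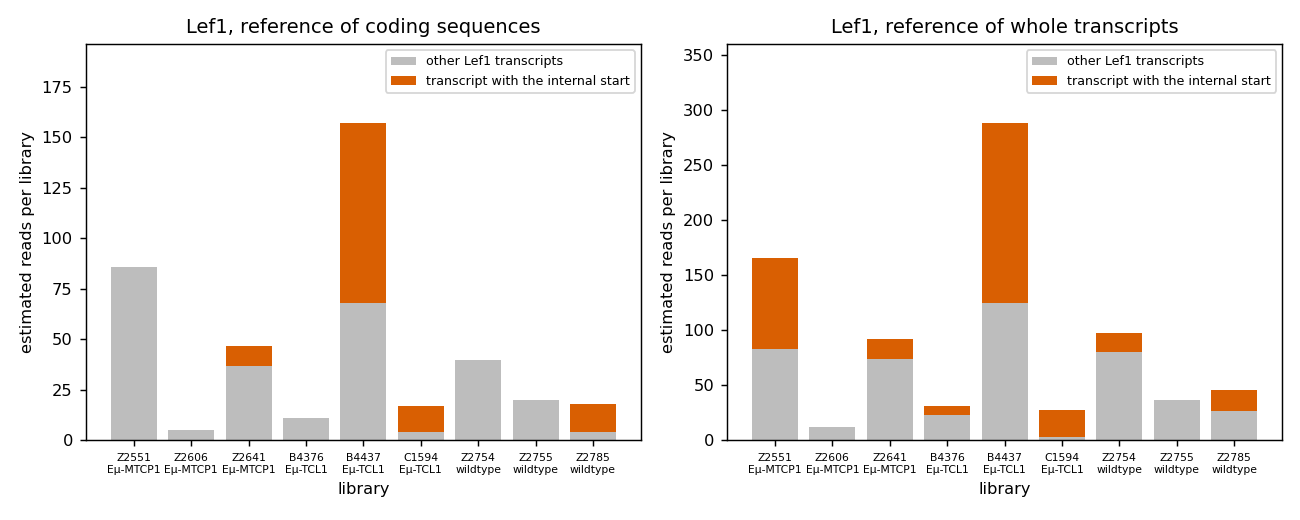
Estimated Lef1 reads per library on coding sequences (left) and on whole transcripts (right), with the reads given to the internal-start transcript stacked in orange on those of all other Lef1 transcripts in grey. B4437 has 89 of 157 reads and 163 of 288 reads on the internal-start transcript, whereas Z2551 has 0 of 86 and 83 of 166. Wildtype mouse Z2785 has 14 of 18 and 19 of 46.

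Of the 6 tested genes, 0 passed an adjusted p under 0.05 in Eµ-MTCP1 against wildtype mice, where 9.48% of all tested genes passed. There, 3 of the 6 had an unadjusted p under 0.05, and DESeq2 called 0. In Eµ-TCL1 against wildtype mice 2 of the 6 passed, Wnt10a higher and Lrp5 lower, where 9.2% of all tested genes passed, but Lrp5 entered the test only through the groups where it was higher, so this count is a description. Between the transgenic models 0 of the 6 passed with edgeR or DESeq2, 2 had an unadjusted p under 0.05, and 0.0448% of all tested genes passed. Both comparisons with wildtype share the same 3 control libraries. The median log2 fold change of the 6 was 0.86 in Eµ-MTCP1 and 0.85 in Eµ-TCL1 mice, against -0.02 and -0.01 over all tested genes. As the genes were chosen with earlier results of these data known, these medians and the counts above are descriptions.

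**Figure D3:**
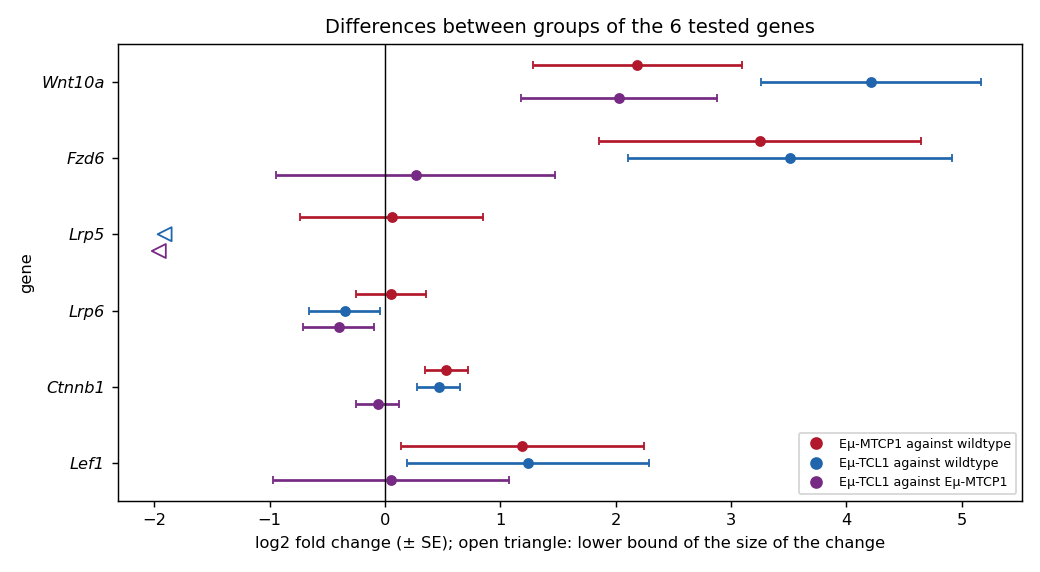
Log2 fold change with its SE (dots and bars) of the 6 tested genes in each of the 3 comparisons, with an open triangle where a group lay at the floor and only a lower bound of the change could be given. Wnt10a stands at 2.19 and 4.21 against wildtype, and Ctnnb1 at 0.53 and 0.47.

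By a rule of likeness over log2 CPM of all 9 libraries, the genes most like Wnt10a were Tppp (Pearson r = 0.984), Myadm (0.975) and Tagln2 (0.969). Those most like Lrp5 were Zfp39 (0.958), BC025920 (0.953) and Zfp667 (0.950). These values describe 9 libraries of 3 groups, the points share the group differences, and Lrp5 rests on few reads.

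Beyond the 10 genes, 12 lists of the pathway held 118 genes, of which 117 were in the table and 50 could be tested. Ligands and secreted inhibitors were mostly at the floor: 13 of 19 Wnt ligands and 10 of 14 secreted inhibitors had at most 3 reads in every library, as did 5 of 10 Frizzled receptors. By contrast 7 of 8 genes of the destruction complex and all 11 signaling partners of ROR1 were tested. Over all lists, 40 of 117 genes were at the floor everywhere and 25 had 0 reads everywhere. In wildtype mice the ligand transporter Wls, which Wnt secretion needs, was at 8.88 ± 1.68 TPM. Porcn, the acyltransferase that Wnt secretion also needs, had 11 reads in Eµ-MTCP1 mouse Z2606 and 0 in the other 8 libraries. Ryk, a Wnt-binding kinase-like receptor, had 31 to 54 reads in Eµ-MTCP1, 17 to 70 in Eµ-TCL1 and 5 to 17 in wildtype mice and did not pass (adjusted p = 0.0646 and 0.0597, edgeR).

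**Figure D4:**
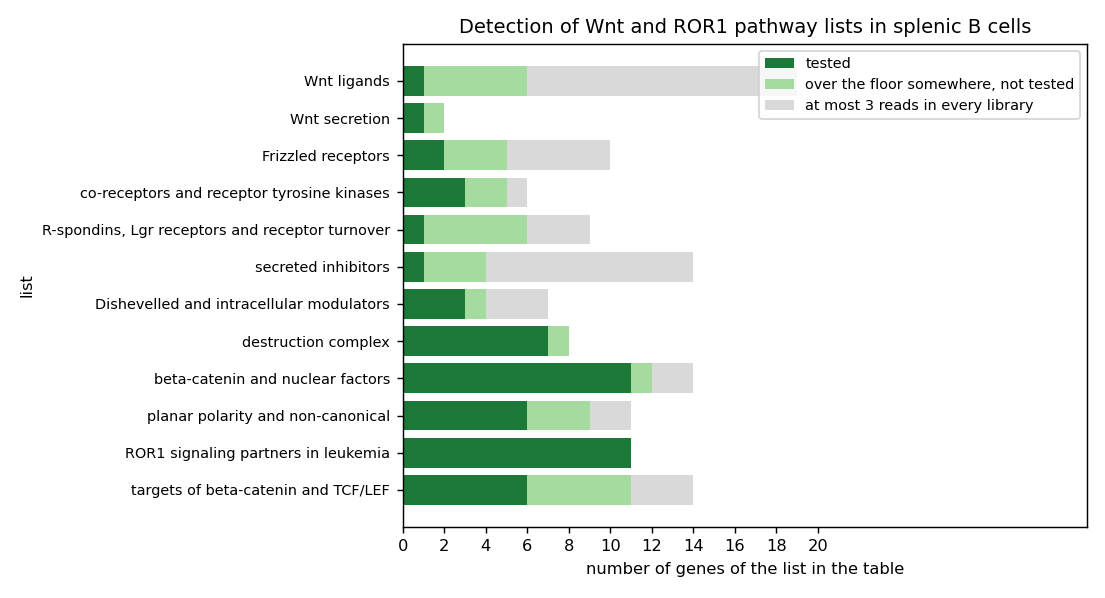
Number of genes in each of the 12 lists that were tested, that were over the floor in some library but not tested, and that had at most 3 reads in every library. Of the Wnt ligands 1 of 19 was tested, and of the ROR1 signaling partners 11 of 11.

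In Eµ-MTCP1 against wildtype mice 6 of the 50 tested list genes rose and 0 fell (12%, against 9.48% of all tested genes); in Eµ-TCL1 against wildtype mice 6 rose and 3 fell (18%, against 9.2%). Of the called genes, Lrp5, Tle1, Prickle1 and Cttn entered the test through the groups where they were higher, so these counts and shares, and those of the single lists, are descriptions. The median log2 fold change over the 50 was 0.08 and -0.07. Between the transgenic models 0 passed with edgeR or DESeq2, and 5 had an unadjusted p under 0.05. Leaving out 1 wildtype library reduced the counts to 1 or 2 in either comparison, and leaving out C1594 reduced that of Eµ-TCL1 mice to 3 and Z2641 that of Eµ-MTCP1 mice to 3.

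Of 11 tested genes among beta-catenin and its nuclear factors, 1 rose in Eµ-MTCP1 mice (9.09%, against 9.48% of all tested genes). In Eµ-TCL1 mice 1 rose and 2 fell (27.3%, against 9.2%). Tle3, a Groucho-type co-repressor that binds TCF/LEF factors, had 81.5 to 99.5 CPM in Eµ-MTCP1, 108 to 126 in Eµ-TCL1 and 40.7 to 60.8 in wildtype mice, and rose in both comparisons (log2 fold change 0.94 ± 0.20 and 1.31 ± 0.20, adjusted p = 0.0157 and 0.00275, edgeR). Its relative Tle1 fell in Eµ-TCL1 mice, from 34 to 74 reads in wildtype to 2 to 7 reads (log2 fold change -3.30 ± 0.83, adjusted p = 0.0325, edgeR). Tle1 entered the test through the wildtype libraries, and with no filter on low reads its adjusted p was 0.0260 (edgeR). In Eµ-MTCP1 mice Tle1 had 2 to 16 reads and did not pass (adjusted p = 0.0816). Bcl9, which ties beta-catenin to its co-activators, fell in the Eµ-TCL1 model (26 to 74 reads, wildtype 140 to 242, log2 fold change -1.63 ± 0.41, adjusted p = 0.0333, edgeR). Among targets of beta-catenin, Ccnd2, which encodes the cell-cycle protein cyclin D2 and responds to many other signals, rose in both comparisons (log2 fold change 1.34 ± 0.22 and 1.08 ± 0.22, adjusted p = 0.00462 and 0.0129, edgeR); the 5 other tested targets did not pass in either. Bambi, another target, had 27 to 80 reads in Eµ-MTCP1, 43 to 122 in Eµ-TCL1 and 108 to 176 in wildtype mice. Rnf43, a target that removes Frizzled receptors from the membrane, had 1 to 57 reads in Eµ-MTCP1, 39 to 246 in Eµ-TCL1 and 16 to 26 in wildtype mice and did not pass (log2 fold change 0.45 ± 1.01 and 2.51 ± 1.02, adjusted p = 0.813 and 0.158, edgeR). Without 1 library, the calls of Tle3 in Eµ-TCL1 and of Ccnd2 in Eµ-MTCP1 mice passed in all 9 fits. Those of Tle3 in Eµ-MTCP1 and of Ccnd2 in Eµ-TCL1 mice were lost without Z2754 or Z2755 (adjusted p = 0.0514 to 0.0761, edgeR). That of Bcl9 was lost without B4437, C1594 or any 1 wildtype library, and that of Tle1 without any 1 Eµ-TCL1 or wildtype library (adjusted p = 0.0672 to 0.108, edgeR).

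Outside the beta-catenin route, Prickle1, a planar polarity gene, had 53, 10 and 18 reads in the Eµ-MTCP1 libraries. It had 10, 25 and 80 reads in the Eµ-TCL1 and 0, 1 and 0 in the wildtype libraries. Prickle1 was at least 11.4-fold higher in Eµ-MTCP1 (adjusted p = 0.0163, edgeR) and, in the Eµ-TCL1 model, at least 13.6-fold (adjusted p = 0.0128, edgeR). Prickle1 entered the test through the transgenic libraries, and with no filter its adjusted p was 0.00722 and 0.00520 (edgeR). Without Z2551 the former bound was 5.73-fold, and without C1594 the latter was 5.81-fold. The call in Eµ-MTCP1 mice was lost without Z2551 or any 1 wildtype library (adjusted p = 0.0544 to 0.0803, edgeR), and that in Eµ-TCL1 mice without any 1 wildtype library (adjusted p = 0.0505 to 0.0675, edgeR). Prickle3 rose in the Eµ-MTCP1 model (306 to 505 reads, wildtype 211 to 282, log2 fold change 1.02 ± 0.23, adjusted p = 0.0215, edgeR); in Eµ-TCL1 mice its log2 fold change was 0.36 ± 0.23 (adjusted p = 0.369), and the direct difference did not pass (adjusted p = 0.678). The call of Prickle3 was lost without Z2641 or any 1 wildtype library (adjusted p = 0.0560 to 0.0906, edgeR). Cttn, the actin-binding protein cortactin, which is known as a partner of ROR1 in leukemia cells, rose in Eµ-TCL1 mice (54, 12 and 206 reads against 7, 7 and 2, adjusted p = 0.0259, edgeR) and had 45, 74 and 19 reads in Eµ-MTCP1 mice (adjusted p = 0.0587, but 0.0168 with only those mice and wildtype mice fitted and 0.0366 with no filter, edgeR). Cttn too entered the test through the transgenic libraries, and with no filter its adjusted p in Eµ-TCL1 mice was 0.0112 (edgeR). Its call was lost without C1594 or any 1 wildtype library (adjusted p = 0.0850 to 0.0966, edgeR). Of the 11 tested partners, 2 rose in Eµ-MTCP1 (18.2%, against 9.48% of all tested genes) and 2 in Eµ-TCL1 mice (18.2%, against 9.2%), while Ror1 itself had at most 1 read per library. Each of the 2 calls in Eµ-MTCP1 mice was lost in 7 of 9 fits without 1 library (adjusted p = 0.0527 to 0.176, edgeR). With only those mice and wildtype mice fitted, neither passed (adjusted p = 0.0528 and 0.0545, edgeR). The call in Eµ-TCL1 mice other than Cttn was lost in 6 of 9 (adjusted p = 0.0572 to 0.145, edgeR).

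**Figure D5:**
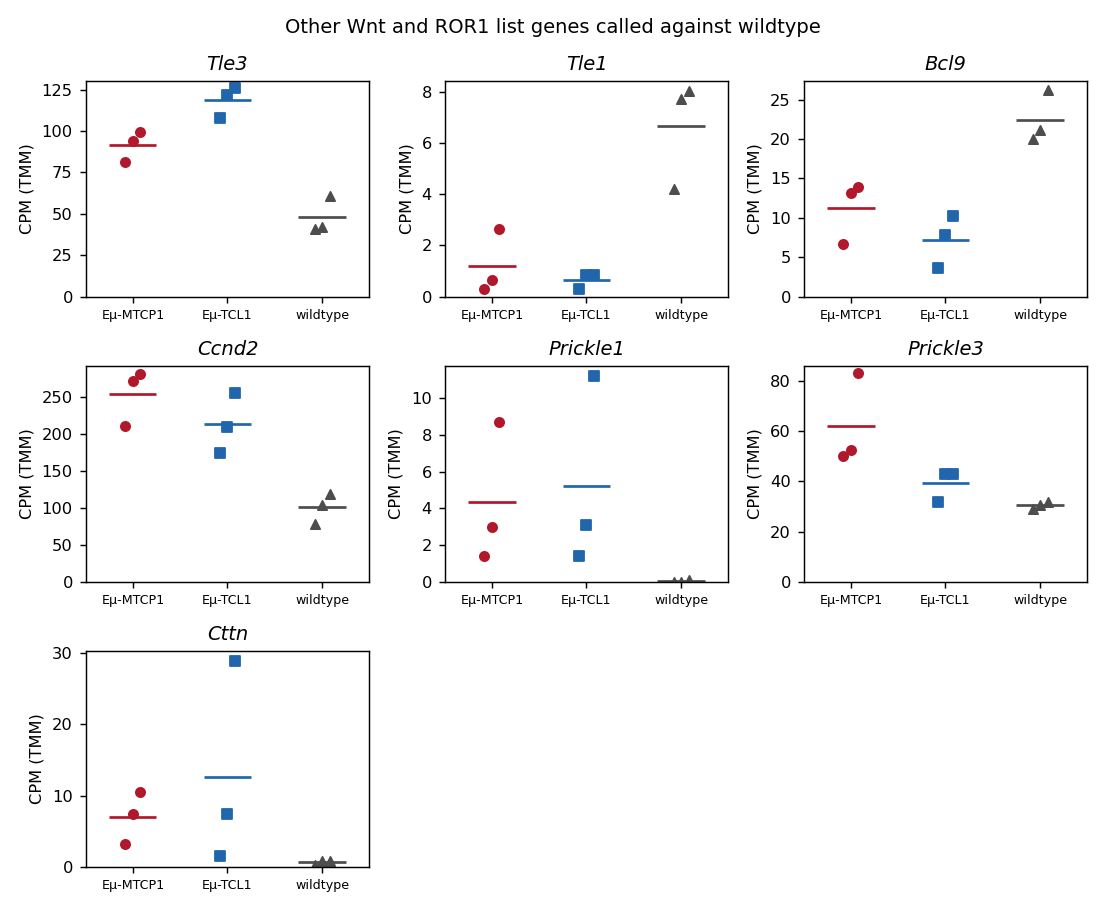
CPM scaled by TMM in each library (points) and group means (lines) for 7 of the 9 list genes, other than the 10 genes of the report, that passed in at least 1 comparison with wildtype. Tle3 is at 40.7 to 60.8 CPM in wildtype and at 81.5 to 126 CPM in the transgenic mice, whereas Tle1 and Bcl9 are highest in wildtype mice.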

How the data were processed

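RNA was sequenced by the study from splenic B cells, and the 9 libraries, each from another mouse, were grouped by the deposited labels. Per the labels, reads were processed with CASAVA 1.8.2, Salmon 1.0.0, HISAT2 2.0.6, featureCounts and DESeq2 on build GRCm38.p4. Estimated counts per transcript and TPM were made by the authors with Salmon, on a standard mouse reference and on one of 57871 transcripts with human sequences added, whose lengths equalled the annotated coding length for 92.2% of the transcripts that could be compared; it therefore holds few UTR reads. The authors also deposited whole gene counts from genome alignment, counts that passed their CLEAR coverage filter, and log2 normalized values. Transcript and effective lengths, filed as score values, were deposited by the authors with the Salmon output. Columns with the authors' own fold changes and p-values were not used. Transcripts were joined to genes by GENCODE M21 (GRCm38), and 0.190 to 0.291% of the reads per library had no gene and were left out.

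Estimated counts on the reference with human sequences were summed per gene, rounded, normalized by TMM and filtered by filterByExpr. Differences came from the two-sided quasi-likelihood test of edgeR (version 4.0.16, under R 4.3.3) with 1 fit over all 9 libraries and Benjamini-Hochberg adjustment over all tested genes. The steps were tested on simulated data. The 10 genes and the lists were chosen with earlier results of these data known. Named are all 10 genes, list genes called or among the most abundant of their list, and the 3 genes most like each called gene; 2 called genes of the list of ROR1 signaling partners are counted but not reported here by name. Groups whose libraries all hold at most 3 reads lie at the floor, and folds against it are lower bounds. Alternatives were DESeq2 1.42.0, other scalings, filters, references and counts, and each library left out. Libraries were independent mice, so p-values measure the spread between mice.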

Additional observations from a re-analysis of the deposited data

How the results depend on the processing

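No paired analysis was possible because the labels give no replicate numbers. In Eµ-TCL1 against wildtype mice the 2 calls among the 10 genes became 1 (Wnt10a) on the reference of whole transcripts and with only the compared groups fitted, where Lrp5 did not enter the test, and 0 where an unadjusted p under 0.001 was required together with a change of at least 2 in log2 units; leaving out 1 library gave 0 to 2. In Eµ-MTCP1 against wildtype mice the 0 calls became 1 (Wnt10a) with genome counts and no filter. Calls over the lists in Eµ-MTCP1 mice were 6, but 10 on whole transcripts, with genome counts and with DESeq2, 11 and 13 on whole transcripts and genome counts without a filter, 1 under the rule with an unadjusted p, and 1 to 7 with 1 library left out; in Eµ-TCL1 mice they were 9, but 14 with genome counts and no filter, 1 under the rule with an unadjusted p, and 1 to 9 with 1 library left out. The 2 alternatives without a filter on other references were added after the data were seen.

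The log2 fold change of Wnt10a in Eµ-TCL1 mice against wildtype ranged from 2.96 to 4.68 and that of Lrp5 from -6.46 to -4.22 with 1 library left out; Lrp5 did not pass on whole transcripts with (-2.63) or without (-2.66) a filter. Wnt10a passed in Eµ-MTCP1 mice with genome counts and no filter (2.01), and Fzd6 in Eµ-TCL1 mice on whole transcripts (3.61) and genome counts (3.82) without a filter. Signs turned among values that passed nowhere: Lrp5 in Eµ-MTCP1 against wildtype (-0.15 with library-size scaling alone; -0.42 to 0.38 with 1 library left out); Lrp6 in the same comparison (-0.19 with library-size scaling alone, -0.089 on whole transcripts, -0.16 with genome counts, -0.12 and -0.19 without a filter; -0.049 to 0.14 with 1 library left out); Lef1 with 1 library left out (-0.78 to 1.72 in Eµ-TCL1 against wildtype, -1.94 to 0.88 between the models); and, between the models, Fzd6 (-0.75 with transcript-length offsets; -1.38 to 3.27 with 1 library left out) and Ctnnb1 (0.033 with library-size scaling alone; -0.16 to 0.029 with 1 library left out). The causes were not tested.

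Among the 6 tested genes, the mean TPM on whole transcripts moved by more than 1 SD for Wnt10a in wildtype mice (2.81), Lrp5 in Eµ-TCL1 (0.0195) and wildtype (0.197) mice, Lrp6 in Eµ-MTCP1 (2.63), Eµ-TCL1 (2.04) and wildtype (3.89) mice, and Ctnnb1 (30.7, 30.1 and 31.0). The share of Lef1 reads on the internal-start transcript became 50% in Z2551, 18.4% in Z2754 and, from 18 reads on coding sequences, 41.3% in Z2785. Depth limits Ror1, Axin2 and Fzd1, which had at most 3 reads in at least 8 of the 9 libraries, and Lrp5 and Wnt16, which reached at most 15 and 36 reads.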

Other observations

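Libraries Z2606 (Eµ-MTCP1) and C1594 (Eµ-TCL1), which had the most Fzd6 reads of their groups and also the most Wnt10a reads, shared a leading heavy chain segment. Ighv12-3 took 95.8% of the reads on heavy chain variable segments in Z2606 and 98.1% in C1594, against 0.0288 to 9.22% in the other 7 libraries. This was looked at after the values of Fzd6 were seen, and its part in the Fzd6 and Wnt10a values was not tested.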
